A study of Mus musculus with 6 samples.

Results

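The genes of the major histocompatibility complex (MHC, called H2 in the mouse) and of antigen presentation were examined in RNA sequencing of isolated pancreatic islets from 6-week-old mice. The 3 KO libraries came from Paupar -/- mice and the 3 WT libraries from Paupar +/+ mice, Paupar being a long noncoding RNA gene beside Pax6. The labels name no strain, no other allele and no sex, and they do not tie a library to an animal or a pool, so p-values measure the spread between these libraries, which may be technical. Members were the 42 table rows whose symbol starts with H2- and does not end in -ps, plus B2m, Tap1, Tap2, Tapbp, Psmb8, Psmb9, Psmb10, Cd74, Ciita and Nlrc5. This gave 52 of 53670 genes. By role they were 30 class I heavy chain symbols, 11 class II chain symbols, 4 light chain and peptide loading genes, 3 immunoproteasome genes, the invariant chain gene Cd74, 2 transactivator genes, and H2-Ke6, whose symbol carries the prefix although it encodes a hydroxysteroid dehydrogenase and no MHC chain.

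Class I molecules are made of a heavy chain and the light chain beta-2 microglobulin, and nearly all nucleated cells use them to show peptides from their own proteins to CD8 T cells. The peptides are cut by the proteasome, carried into the endoplasmic reticulum by the TAP transporter and loaded with the help of tapasin. Class II molecules pair an alpha and a beta chain, are loaded in endosomes after the invariant chain is removed, and are made mainly by B cells, dendritic cells and macrophages. In islets, class I on beta cells is the target of CD8 T cells in autoimmune diabetes.

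Both classes are switched on through short promoter elements, of which the X and Y boxes are bound by the RFX and NF-Y factors and recruit CIITA for class II and NLRC5 for class I. The stretches below come from RefSeq promoter windows on GRCm38.p6, which cover 250 bases before to 50 bases after the start of transcription, and 37 of the 52 members had a window. They are shown because the tested class II genes were high and low in the same WT libraries, and 5 of the 8 class II windows hold X and Y box cores at a similar spacing. The part of these boxes in that library pattern was not tested. H2-Aa, H2-Oa and H2-DMa, whose windows held no X box core match, were highest in WT replicate 2. Of the 5 genes with a match, H2-Eb1 and H2-DMb1 were highest in WT replicate 2, and H2-Ob, H2-DMb2 and H2-Eb2 in WT replicate 1. With or without a match, all of these genes were lowest in WT replicate 3. Capitals mark matches to 5 letter patterns searched on both strands, with N for any base: the Y box core GATTGG, the X box core AACNNATG, the CRE-like element TGATGAC, the interferon-response core GTTTCACTT and the enhancer A core GGGGATTCC. The letters were chosen with these windows in view, and no pattern overlaps another in the stretches shown. For class II chains the stretches are, 5′ to 3′ on the gene's strand:
H2-Eb1: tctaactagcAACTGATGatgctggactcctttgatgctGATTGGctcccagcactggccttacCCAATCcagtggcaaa
H2-Eb2: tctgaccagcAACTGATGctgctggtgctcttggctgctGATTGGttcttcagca
H2-DMb1: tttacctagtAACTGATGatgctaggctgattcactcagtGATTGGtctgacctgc
H2-Ob: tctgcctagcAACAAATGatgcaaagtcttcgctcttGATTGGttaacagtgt
H2-Aa: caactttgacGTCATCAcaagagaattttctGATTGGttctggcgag

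These stretches lie at chr17:34305768-34305847 (H2-Eb1, plus strand), chr17:34325535-34325589 (H2-Eb2, plus), chr17:34153089-34153144 (H2-DMb1, plus), chr17:34238810-34238862 (H2-Ob, plus) and chr17:34287857-34287903 (H2-Aa, minus). The Y box core was found in 7 of 8 class II windows and 16 of 22 class I windows, against 16.1% of all 32851 windows of this length. The X box core was found in 5 of 8 class II windows and 1 of 22 class I windows, against 8.86% of all windows. This count covers the letters AACNNATG only, so a window without a match is not shown to lack an X box. Since the letters were chosen with these windows in view, the shares over all windows are given for scale and are no test. From the first base of the X box core to the first base of the Y box core there were 27 bases in H2-Ob, 29 in H2-Eb1 and H2-Eb2, and 30 in H2-DMb1 and H2-DMb2.

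Some class I windows, not all, hold an enhancer A or interferon-response core upstream. Stretches are shown here for the classical gene H2-D1, the Qa-2 gene H2-Q6 and the T-region gene H2-T22, which behaved differently from each other across the libraries:
H2-D1: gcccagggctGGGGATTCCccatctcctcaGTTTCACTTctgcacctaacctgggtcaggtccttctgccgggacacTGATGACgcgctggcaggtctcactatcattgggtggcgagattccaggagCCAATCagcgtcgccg
H2-Q6: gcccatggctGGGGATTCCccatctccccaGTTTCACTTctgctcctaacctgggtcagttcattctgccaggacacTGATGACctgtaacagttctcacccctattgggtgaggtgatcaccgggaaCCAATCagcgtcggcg
H2-T22: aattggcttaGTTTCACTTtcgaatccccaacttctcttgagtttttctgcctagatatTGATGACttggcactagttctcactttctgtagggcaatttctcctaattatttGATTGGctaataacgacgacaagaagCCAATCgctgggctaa

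They lie at chr17:35262913-35263056 (H2-D1, plus), chr17:35424667-35424810 (H2-Q6, plus) and chr17:36042790-36042944 (H2-T22, minus). The interferon-response core was found in 9 of 22 class I windows and in 0 of 8 class II windows, against 0.4% of all windows. The enhancer A core was found in the class I windows of H2-K1, H2-D1, H2-Q6 and H2-Q7 and in 0.25% of all windows. The CRE-like element was found in 7 of 22 class I windows and in 1 of 8 class II windows, against 3.23% of all windows. A match describes letters in the window and is no evidence of binding, and the shares over all windows are no test here either.

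**Figure D1:**
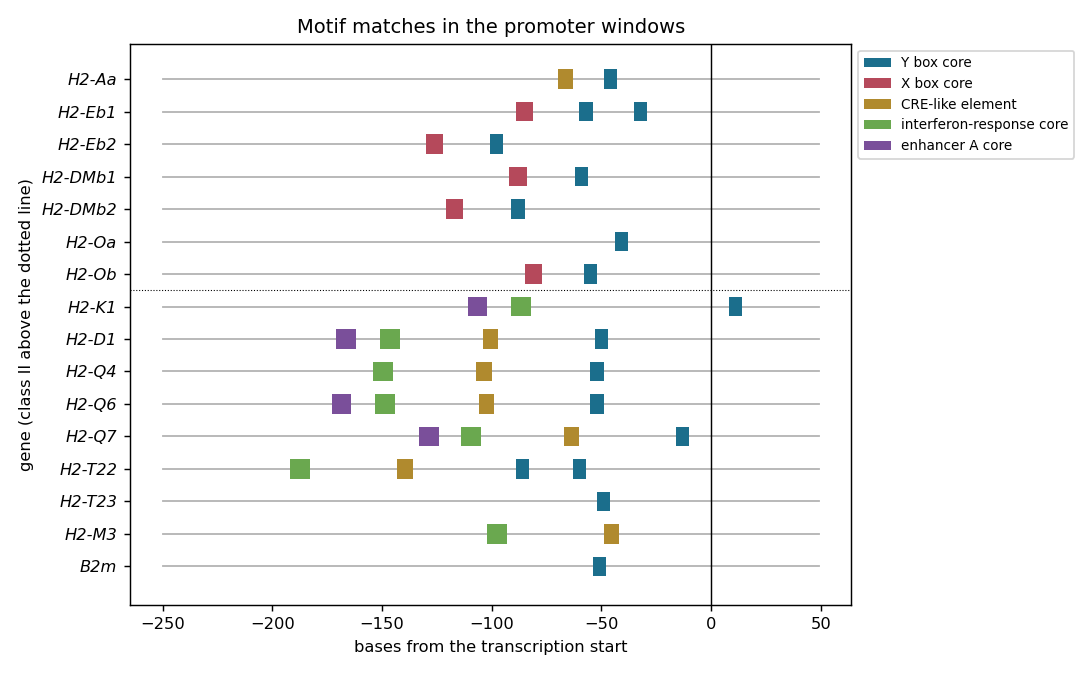
Matches to the 5 letter patterns in RefSeq promoter windows of 7 class II genes (above the dotted line), 8 class I genes and B2m. The horizontal axis gives bases from the start of transcription and each block is a match on either strand. X and Y box cores stand 27 to 30 bases apart in 5 class II genes. Interferon-response cores stand upstream in the class I genes shown except H2-T23.

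The 6 libraries held 25733194 to 27285009 gene counts, and the upper limit for a gene with 0 counts (3 counts) was 0.111 to 0.114 CPM (counts scaled to a common library size with TMM factors). Such floors and intervals cover counting error only. Paupar had 4, 0 and 4 counts in KO replicates 1 to 3, against 177, 252 and 111 counts in WT replicates 1 to 3. Pooled over libraries and taken per total count, without TMM factors, this was 69.7-fold lower in KO, with a 95% exact counting interval of 35.1 to 162. Xist, the RNA of the inactive X chromosome, had 0, 1120 and 862 counts in KO replicates 1 to 3 against 1, 6 and 3 in WT, while the Y-linked Ddx3y had 1693, 2 and 0 against 1715, 1316 and 1830. KO replicates 2 and 3 thus differed in sex from the other 4 libraries, and with sex as a covariate the genotype effect rests on KO replicate 1 against WT. Beta cell markers, among them Ins1 and Ins2, summed to 277688 to 285801 CPM in KO and 215221 to 234016 CPM in WT. Libraries of 1 group differed by far more than counting noise (chi-square per degree of freedom 25.0 to 81.8).

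In KO islets against WT islets, no antigen presentation gene passed the test. The classical class I genes H2-K1 and H2-D1 stood at similar levels in both genotypes. B2m and Tapbp had higher means in KO, by less than the spread between libraries allowed to call. All 9 tested class II chain genes, Cd74 and Ciita had lower means in KO, yet their KO values lay inside the range of the WT libraries, because WT replicates 1 and 2 were high and WT replicate 3 was the lowest of all 6 libraries.

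Of the 52 members, 33 passed the filter on low counts. None of the 33 was called by edgeR's quasi-likelihood test at an adjusted p below 0.05, where 0.17% of all 15915 tested genes were called (27 genes, all lower in KO). Their lowest adjusted p was 0.162. At an unadjusted p below 0.05 there were 2 of the 33 (6.06%), against 16.4% of all tested genes. H2-K2 was lower, as were 9.38% of all genes at that p, and H2-Q2 was higher, as were 6.99%. DESeq2 called 0 members, with 4 of 33 at an unadjusted p below 0.05 against 15.3% of all genes, while calling 4.06% of all genes. It gave no adjusted p for H2-K2, H2-Q5, H2-M2, H2-Oa, H2-DMb1, H2-T10, H2-T24 and Nlrc5, so these rows could not be called. limma-voom called 0 members, with 2 of 33 at an unadjusted p below 0.05 against 16.3% of all genes, and called 0.0% of all genes. KO and WT libraries did not overlap for 2 of the 33 members (6.06%), H2-Q2 higher and H2-K2 lower in KO, against 23.4% of all tested genes. Without WT replicate 3 the same edgeR test called 2 members, H2-Ob and Ciita, both lower in KO, where 0.547% of all genes were called.

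**Figure D2:**
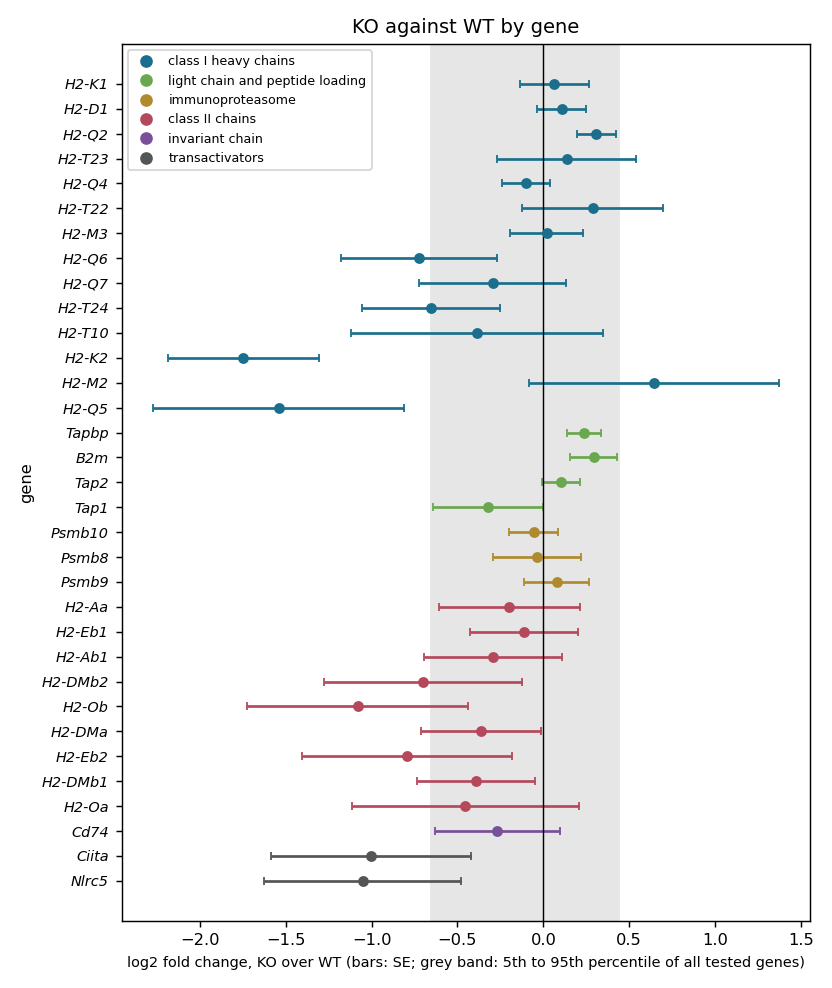
log2 fold change of KO over WT for the 33 tested members, grouped by role, with SE bars; the grey band spans the 5th to the 95th percentile of all 15915 tested genes, -0.65 to 0.44. Class I genes lie on both sides of 0, all 9 class II chains, Cd74, Ciita and Nlrc5 lie below 0 with SE bars of 0.31 to 0.66, and none passed the test.

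H2-K1 and H2-D1 encode the classical class I heavy chains, which present peptides to CD8 T cells. H2-K1 (mm9 chromosome 17, 34132962 to 34137278) stood at 266, 360 and 359 CPM in KO replicates 1 to 3, against 322, 387 and 234 CPM in WT replicates 1 to 3. The groups overlapped, with KO replicate 1 and WT replicate 3 as the 2 lowest libraries, with a fold change of 0.06 on the log2 scale (SE 0.20, adjusted p = 0.907). H2-D1 (35399675 to 35404444) stood at 388, 301 and 283 CPM in KO, against 262, 319 and 321 CPM in WT (log2 fold change 0.11, SE 0.14, adjusted p = 0.752). Here KO replicate 1 was the highest library. The ratio of H2-K1 to H2-D1 counts was 0.687, 1.196 and 1.27 in KO replicates 1 to 3 and 1.23, 1.21 and 0.728 in WT replicates 1 to 3, so H2-D1 exceeded H2-K1 in KO replicate 1 and WT replicate 3 and not in the other 4 libraries. These chains share stretches with other class I genes: 8.87% of the 50-base words of the longest H2-K1 transcript and 14.3% of those of H2-D1 also occur in transcripts of other genes. How reads matching several genes were counted is not given in the sources used here.

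The genes of the T region differed more between libraries than between genotypes. H2-T23 encodes the heavy chain of Qa-1, which displays leader peptides of other class I chains to NK cell receptors. It stood at 20.2, 48.2 and 34.9 CPM in KO, against 35.6, 41.9 and 16.7 CPM in WT (log2 fold change 0.14, SE 0.40, adjusted p = 0.901). H2-T22, a ligand of some gamma-delta T cells, stood at 12.4, 30.3 and 25.5 CPM in KO, against 21.9, 24.0 and 9.96 CPM in WT (0.29, SE 0.41, adjusted p = 0.772). For both genes the 2 lowest libraries were WT replicate 3 and KO replicate 1, so the replicates of 1 genotype differed by more than the genotypes did.

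H2-T10, a close relative of H2-T22 that is also recognised by gamma-delta T cells, ran in the other direction. It stood at 5.82, 0.649 and 1.21 CPM in KO (153, 17 and 32 counts), against 2.62, 3.75 and 3.67 CPM in WT (log2 fold change -0.39, SE 0.73, adjusted p = 0.832). KO replicate 1 was its highest library and KO replicates 2 and 3 its lowest, below every WT library. The ratio of H2-T22 to H2-T10 counts was 2.13, 46.7 and 21.1 in KO replicates 1 to 3 and 8.36, 6.41 and 2.72 in WT replicates 1 to 3, a 21.9-fold range. Of the 50-base words of H2-T22, 44.2% occur in other genes' transcripts, above all in H2-T10, and the counts of this pair are uncertain for that reason. H2 genes differ in sequence between mouse strains, the reference genome is that of C57BL/6J, and the labels give no strain. H2-T10 is annotated as a polymorphic pseudogene. KO replicates 2 and 3, with the highest ratios, were also the libraries that differed in sex from the others. The part of alleles or of sex in these ratios was not tested. H2-T24 stood at 3.46, 2.14 and 2.98 CPM in KO, against 6.32, 5.05 and 2.15 CPM in WT (-0.66, SE 0.40, adjusted p = 0.472).

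**Figure D3:**
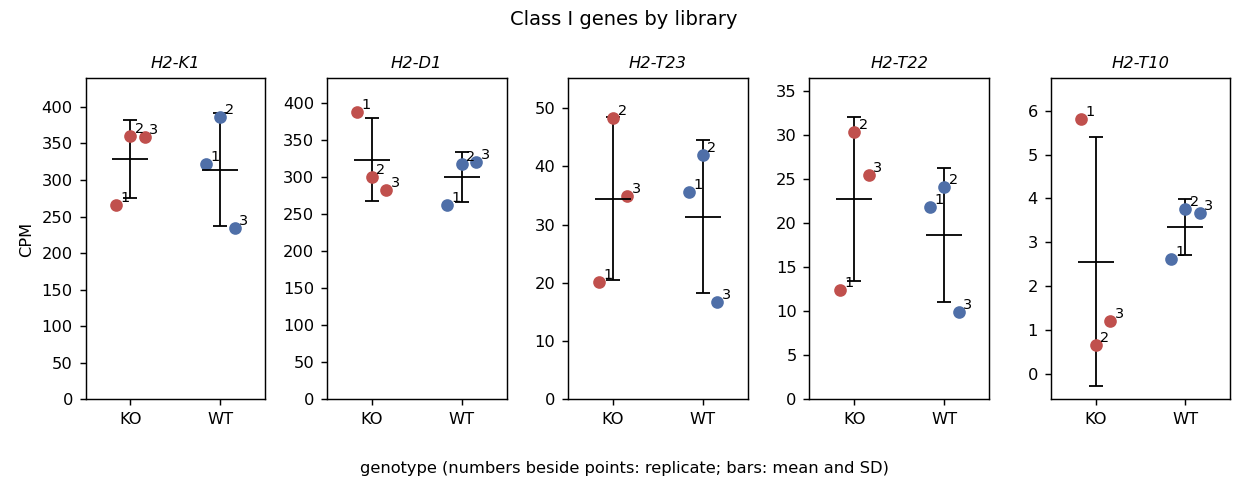
CPM of 5 class I genes in each library, KO left of WT, with the replicate number beside each point and the mean and SD as bars. H2-T22 and H2-T23 are lowest in KO replicate 1 and WT replicate 3, and H2-T10 is highest in KO replicate 1 and lowest in KO replicates 2 and 3.

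Among the Q genes, H2-Q2 was the member whose KO libraries all stood above the WT libraries. It had 84.04, 114 and 96.5 CPM in KO, against 81.9, 79.5 and 76.5 CPM in WT (log2 fold change 0.31, SE 0.11, adjusted p = 0.259). Its highest libraries were KO replicates 2 and 3, which differed in sex from the others. With sex as a covariate its log2 fold change was 0.08, and the part of sex was not tested. H2-Q4 hardly moved, at 21.2, 21.7 and 22.2 CPM in KO and 21.9, 28.3 and 19.6 CPM in WT (-0.10, SE 0.14, adjusted p = 0.770). H2-Q6 and H2-Q7 encode Qa-2, a class I molecule that a lipid anchor can hold in the membrane. H2-Q6 stood at 9.66, 7.59 and 5.69 CPM in KO, against 13.8, 19.1 and 5.04 CPM in WT (-0.72, SE 0.45, adjusted p = 0.479). H2-Q7 stood at 6.05, 7.02 and 3.69 CPM in KO, against 6.02, 10.995 and 3.55 CPM in WT (-0.30, SE 0.43, adjusted p = 0.775). Both were highest in WT replicate 2 and lowest in WT replicate 3. Of their words, 23.2% in H2-Q6 and 27.0% in H2-Q7 occur in other genes, each most often in the other of the pair, so their split is uncertain.

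H2-M3, which presents formylated peptides of bacteria and mitochondria, stood at 10.6, 15.8 and 11.5 CPM in KO, against 12.0, 15.6 and 9.89 CPM in WT (0.02, SE 0.21, adjusted p = 0.977). The rarest tested class I rows were H2-K2, H2-Q5 and H2-M2. H2-K2, annotated as a pseudogene, had 12, 11 and 10 counts in KO, against 33, 60 and 21 counts in WT, and its log2 fold change of -1.75 (SE 0.44, adjusted p = 0.162) was the lowest of all members. H2-Q5 had 7, 15 and 5 counts in KO against 37, 38 and 6 in WT, and H2-M2 had 23, 29 and 17 against 2, 30 and 13. Over the 14 tested class I rows, 7 fold changes were positive and 7 negative, with a median of -0.04, beside 0.0023 for all tested genes.

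Of the 19 members that did not pass the filter, 16 were class I rows, 2 were the class II rows H2-Pa and H2-Pb, and 1 was H2-Ke6. They included 6 of the genes of the H2-M10 family, which is known from the vomeronasal organ, with its pseudogene row H2-M10.5-ps1, and H2-Q10, known as a secreted class I chain of the liver. The highest count of any of them in a library was 11, for H2-M9 in KO replicate 1, and 9 of the 19 had 0 counts in every library. Because the filter keeps genes that are high in either genotype, the 33 tested members do not stand for all 52.

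The partners of the class I chains were measured more evenly. B2m, the light chain of every class I molecule (mm9 chromosome 2, 121973422 to 121978819), stood at 156, 149 and 123 CPM in KO, against 117, 134 and 98.2 CPM in WT. KO replicate 3 lay below WT replicate 2, so the groups overlapped, with a log2 difference of 0.29 (SE 0.14, adjusted p = 0.346). Tapbp encodes tapasin, which bridges class I to the transporter and edits its peptides. It stood at 129, 160 and 148 CPM in KO, against 113, 126 and 131 CPM in WT (0.24, SE 0.10, adjusted p = 0.308). Apart from KO replicate 1, every KO library exceeded every WT library.

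Tap1 and Tap2 form the peptide transporter, and they differed in their spread. Tap1 stood at 14.1, 17.2 and 17.1 CPM in KO, against 22.6, 27.5 and 10.5 CPM in WT (-0.32, SE 0.32, adjusted p = 0.660). It was high in WT replicates 1 and 2 and lowest in WT replicate 3, a 2.61-fold range over the libraries. Tap2 stood at 22.9, 27.8 and 22.2 CPM in KO, against 21.9, 24.3 and 21.6 CPM in WT (0.11, SE 0.11, adjusted p = 0.680), a 1.29-fold range.

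The immunoproteasome subunits, which interferon-gamma induces and which take the place of the constitutive catalytic subunits, were close to equal between genotypes. Psmb8, which replaces Psmb5, stood at 11.9, 11.8 and 11.2 CPM in KO, against 11.03, 16.8 and 7.92 CPM in WT (-0.04, SE 0.25, adjusted p = 0.962). Psmb9, which replaces Psmb6, stood at 10.6, 12.2 and 10.4 CPM in KO, against 9.34, 13.6 and 8.52 CPM in WT (0.08, SE 0.19, adjusted p = 0.878). Psmb10, which replaces Psmb7, stood at 19.7, 15.6 and 16.5 CPM in KO, against 19.0, 19.8 and 15.0 CPM in WT (-0.05, SE 0.14, adjusted p = 0.884). For each of the 3 genes the KO values lay within the WT range. The summed counts of these 3 genes over those of Psmb5, Psmb6 and Psmb7 gave a ratio of 0.329, 0.279 and 0.305 in KO and 0.350, 0.421 and 0.279 in WT. The constitutive subunits thus held the larger share of counts in all 6 libraries.

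The class II chains were carried by H2-Aa, H2-Ab1 and H2-Eb1, and all of them split the WT libraries more than the genotypes. H2-Aa, the alpha chain of I-A (mm9 chromosome 17, 34406276 to 34424772), stood at 118, 113 and 107 CPM in KO, against 158, 179 and 50.2 CPM in WT (-0.20, SE 0.41, adjusted p = 0.847). H2-Ab1, its beta chain, stood at 92.6, 92.0 and 82.9 CPM in KO, against 124, 160 and 44.8 CPM in WT (-0.29, SE 0.40, adjusted p = 0.759). H2-Eb1, the beta chain of I-E, stood at 124, 97.5 and 85.0 CPM in KO, against 126, 146 and 60.1 CPM in WT (-0.11, SE 0.31, adjusted p = 0.892). In each of the 3 genes the KO libraries lay between WT replicate 3, the lowest, and WT replicates 1 and 2. The SD of H2-Aa was 5.57 CPM among KO libraries and 69.2 CPM among WT libraries. H2-Eb2, a rarer beta chain gene, stood at 6.96, 4.39 and 4.71 CPM in KO, against 13.9, 11.8 and 2.07 CPM in WT (-0.79, SE 0.61, adjusted p = 0.567).

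H2-DM removes the invariant chain remnant from class II, and H2-O, made mainly in B cells and thymic epithelium, holds H2-DM back. H2-DMa stood at 12.1, 9.005 and 9.34 CPM in KO, against 15.4, 17.4 and 6.41 CPM in WT (-0.36, SE 0.35, adjusted p = 0.651). H2-DMb2 stood at 16.4, 10.3 and 10.8 CPM in KO, against 28.6, 27.2 and 5.04 CPM in WT (-0.70, SE 0.58, adjusted p = 0.592). H2-DMb1 was also highest in WT replicates 1 and 2 and lowest in WT replicate 3, at 3.09 to 3.65 CPM in KO and 2.26 to 5.79 CPM in WT, and 27.1% of its words are shared with H2-DMb2. H2-Ob had the widest range of the class II genes, 8.01-fold between WT replicate 1 and WT replicate 3. It stood at 8.48, 8.13 and 7.57 CPM in KO, against 24.9, 23.1 and 3.11 CPM in WT (-1.08, SE 0.64, adjusted p = 0.457). Without WT replicate 3 its log2 fold change was -1.57 (SE 0.11) and passed the test (adjusted p = 0.0239). H2-Oa, with 50, 63 and 40 counts in KO against 99, 102 and 13 in WT, had a 7.87-fold range.

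Cd74 encodes the invariant chain, which guides class II molecules to endosomes, and was the class II pathway gene with the most counts. It stood at 369, 269 and 250.7 CPM in KO, against 427, 475 and 169 CPM in WT (-0.27, SE 0.37, adjusted p = 0.760). Ciita, the class II transactivator (mm9 chromosome 16, 10480237 to 10527657), stood at 14.6, 10.2 and 9.50 CPM in KO, against 32.7, 30.5 and 5.55 CPM in WT (-1.003, SE 0.58, adjusted p = 0.448). Without WT replicate 3 its log2 fold change was -1.46 (SE 0.19, adjusted p = 0.0484). Nlrc5, its class I counterpart, stood at 2.40, 2.25 and 1.51 CPM in KO, against 6.06, 5.57 and 1.15 CPM in WT (-1.05, SE 0.57, adjusted p = 0.417). Both transactivators, like the class II chains, were highest in WT replicates 1 and 2 and lowest in WT replicate 3. This order was not particular to them. All 3 immunoproteasome genes and 8 of the 14 tested class I rows were also lowest in WT replicate 3. So were 3 of the 4 light chain and loading genes, B2m among them. H2-D1 and B2m were highest in KO replicate 1. Ciita spanned 5.89-fold over the libraries and Nlrc5 5.27-fold, whereas B2m spanned 1.59-fold.

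**Figure D4:**
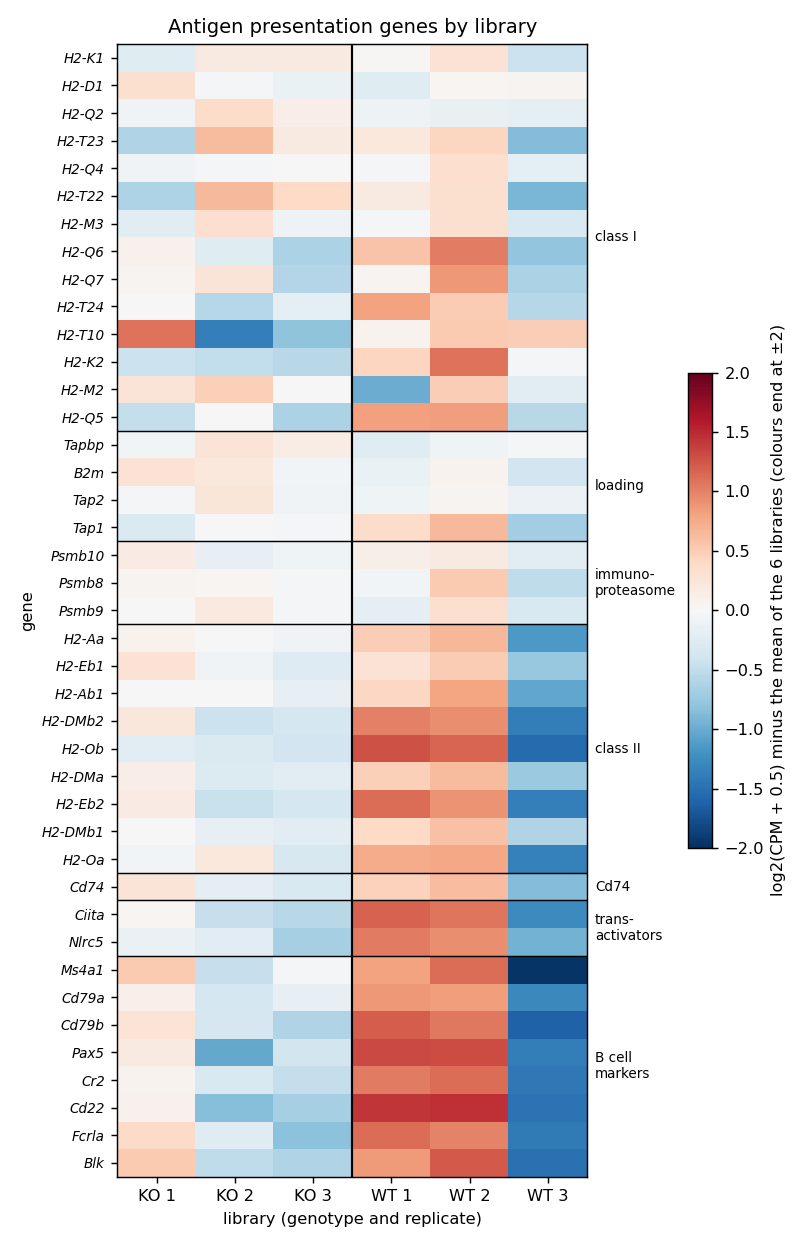
Level of each tested member, with 8 of the 9 B cell markers below, as log2(CPM + 0.5) minus the mean of the 6 libraries, with KO libraries left of WT libraries. Class II chains, Cd74, both transactivators and the B cell markers are high in WT replicates 1 and 2 and lowest in WT replicate 3, while H2-D1, B2m, Tap2 and Tapbp are paler.

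Set side by side, the class I and class II sums differed in how much they varied and in the direction of their means. The 30 class I rows summed to 831, 911 and 848 CPM in KO, against 789.5, 939 and 704 CPM in WT, a 1.33-fold range over the 6 libraries. Most of that sum was H2-K1 and H2-D1, together a mean of 653 CPM in KO and 615 CPM in WT, with a 1.27-fold range. The other 28 class I rows summed to a mean of 210 CPM in KO and 196 CPM in WT, with a 1.67-fold range. Of their 12 tested rows 7 had negative fold changes, with a median of -0.20. The 11 class II rows summed to 384, 339 and 312 CPM in KO, against 499, 574 and 174 CPM in WT, a 3.29-fold range. The mean class I sum was 863 ± 42.3 CPM in KO and 811 ± 119 CPM in WT, and the mean class II sum was 345 ± 36.6 CPM in KO and 416 ± 212 CPM in WT (SD, n = 3 each). Class II over class I was 0.463, 0.373 and 0.368 in KO and 0.632, 0.612 and 0.248 in WT, so the KO ratios lay within the WT range. All 9 tested class II fold changes were negative, with a median of -0.39, beside -0.04 for class I and 0.0023 for all tested genes. Because these genes share the same 6 libraries and moved together among them, the 9 are not 9 separate observations.

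Fold between the highest and the lowest library was at least 2 for all 9 tested class II chains and for 64.3% of the 14 class I rows, beside 25.2% of all tested genes above 0 in every library. Its median was 3.57 for class II, 2.999 for class I and 1.46 for all those genes. All 9 class II chains were lowest in WT replicate 3, as were 8 of the 14 class I rows and 2706 of all 15915 tested genes. All 9 were highest in WT replicate 1 or 2, beside 36.2% of all tested genes.

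Compared per length, as CPM per kilobase of exons in the mm9 annotation, the order of levels was similar in both genotypes. Cd74 came first, with a mean of 210 ± 45.2 in KO and 253 ± 116 in WT. B2m followed with 166 ± 20.1 in KO and 135 ± 20.6 in WT, then H2-K1 with 126 ± 20.7 in KO and 120.5 ± 29.5 in WT, and H2-D1 with 125 ± 21.7 in KO and 116 ± 12.9 in WT (SD, n = 3 each). H2-Eb1 had 86.0 ± 16.9 in KO and 93.0 ± 37.8 in WT, H2-Aa 56.6 ± 2.80 in KO and 65.0 ± 34.8 in WT, and H2-Ab1 54.2 ± 3.29 in KO and 66.5 ± 35.7 in WT. Ciita stood at 1.46 ± 0.353 in KO and 2.93 ± 1.93 in WT, and Nlrc5 at 0.281 ± 0.0653 in KO and 0.583 ± 0.371 in WT. H2-Q2 and H2-Q5 have no usable length here.

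Markers of other cells were read beside these values, since in bulk tissue fewer cells of a type and less RNA per cell cannot be told apart. All 9 B cell markers were detected in all 6 libraries, and they summed to 192, 111 and 124 CPM in KO, against 333, 350.2 and 51.4 CPM in WT, a 6.82-fold range. Their library order had WT replicates 1 and 2 first and WT replicate 3 last, as for class II. Ms4a1, which encodes CD20, stood at 50.8, 25.6 and 34.4 CPM in KO, against 62.3, 77.4 and 8.70 CPM in WT. Cd79a, a part of the B cell receptor, stood at 31.3, 22.7 and 26.04 CPM in KO, against 53.8, 52.3 and 11.7 CPM in WT. None of the 9 passed the test, all were lower on average in KO, and their median log2 fold change was -0.84. Summed class II over the summed B cell markers was 2.01, 3.06 and 2.52 in KO and 1.499, 1.64 and 3.40 in WT, a 2.27-fold range with WT replicate 3 highest. Cd79a had the narrowest range of the 9 markers, 4.61-fold. Relative to Cd79a, H2-Ob was 0.271, 0.357 and 0.291 in KO and 0.464, 0.442 and 0.267 in WT, a 1.74-fold range beside 8.01-fold for its CPM. H2-Aa relative to Cd79a was 3.78, 4.95 and 4.11 in KO and 2.94, 3.43 and 4.30 in WT, a 1.68-fold range beside 3.57-fold for its CPM. Ratios to the other single markers were not computed. Ms4a1, for example, spanned 8.90-fold, so among single markers the narrower range is shown for Cd79a only.

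With the summed B cell markers as a covariate, an alternative chosen after the values were seen, the median log2 fold change of class II was -0.02 and that of class I 0.04, and 0 members were called. That fit leaves few degrees of freedom, and the covariate differs between the genotypes, so it does not separate them.

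**Figure D5:**
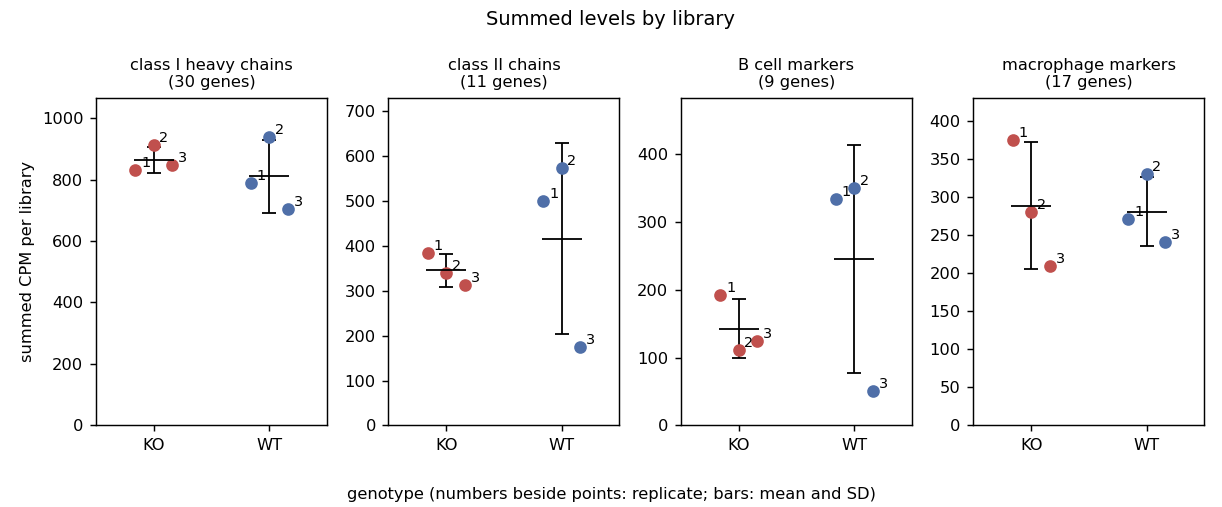
Summed CPM of the 30 class I rows, the 11 class II rows, 9 B cell markers and 17 macrophage markers in each library, KO left of WT, with replicate numbers and bars for mean and SD. Class II and B cell sums share their library order at the extremes, from WT replicate 3 at 174 and 51.4 to WT replicate 2 at 574 and 350.2, and the class I sum spans 1.33-fold.

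Markers of other immune cells were read in the same way. The 17 macrophage and monocyte markers in the table summed to 376, 281 and 210 CPM in KO, against 271, 330.3 and 242 CPM in WT (median log2 fold change 0.26, 0 called, none at an unadjusted p below 0.05). Csf1r, the receptor of the macrophage growth factor, stood at 25.6, 24.3 and 16.1 CPM in KO, against 12.4, 13.6 and 24.8 CPM in WT, so WT replicate 3 was high in this gene while it was lowest in class II. In that list Ptprc (CD45), Laptm5 and Fcgr1 were lowest in WT replicate 3. Fcgr1 stood at 0.370 CPM there and at 1.54 CPM in KO replicate 3, its highest library. Ptprc and Laptm5 are expressed by B cells too, and the part of B cells in their values was not tested. The 9 dendritic cell markers summed to 18.3, 18.1 and 10.4 CPM in KO, against 15.5, 13.0 and 14.1 CPM in WT. The T and NK cell markers summed to 33.4, 22.5 and 12.7 CPM in KO, against 23.3, 34.3 and 10.7 CPM in WT, so their highest and lowest libraries, WT replicates 2 and 3, were those of class II, while WT replicate 1 lay below KO replicate 1. The NK cell gene Ncr1 was at 0 in KO replicate 3 and in WT replicates 1 and 3. Neither list had a called gene.

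Endothelial markers summed to 569, 553 and 543 CPM in KO, against 382, 412 and 478 CPM in WT. Of the 10 genes in this list 0 were called, and the median log2 fold change was 0.40. At an unadjusted p below 0.05, 7 were higher in KO, as were 6.99% of all tested genes. KO lay above WT without overlap for 5 of the 10, as for 11.3% of all tested genes. The acinar markers, which show carried-over exocrine tissue, summed to 42716, 30296 and 16434 CPM in KO, against 68528, 36549 and 21664.5 CPM in WT. Their order did not match that of class II, since WT replicate 1 exceeded WT replicate 2 and KO replicate 3 was lowest. The part of each of these cell types in the values of the members was not tested beyond the values given here.

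Genes that act before and around the MHC were read as lists. Of 6 peptide loading and trimming genes 0 were called, 5 had positive fold changes and the median was 0.16. Calr, which encodes the chaperone calreticulin, was at 0.21 (SE 0.10, adjusted p = 0.365) and Erap1, the peptidase that trims class I peptides, at 0.33 (SE 0.09, adjusted p = 0.169). Erap1 stood at 93.6, 105 and 114 CPM in KO, against 80.5, 81.2 and 86.5 CPM in WT, with every KO library above every WT library, as for 3 of the 6 genes in this list and 11.3% of all tested genes. Of the 6 class II processing genes 0 were called, 5 were positive and the median was 0.21. They are proteases and a reductase of endosomes: Ctss was at 0.09 (SE 0.13), Ctsl at 0.26 (SE 0.11), Ctsb at 0.23 (SE 0.07) and Ctsd at 0.20 (SE 0.07), all with an adjusted p of at least 0.204. Most of these lysosomal genes are used by many cell types. The class II chains they serve had negative fold changes in the same libraries.

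The proteasome activator genes Psme1, Psme2 and Psme3 had a median of 0.05 and the constitutive catalytic subunits one of 0.17, with 0 called in either list. Of 7 class I-like genes outside the H2 symbols, 5 were tested and 0 called (median 0.10), among them Hfe, the iron regulator, at 0.01 (SE 0.11) and Mr1, which presents vitamin B metabolites, at 0.10 (SE 0.15).

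The factors that bind MHC promoters were lower on average, with 8 of 9 negative, 0 called and a median of -0.09. Rfx5 was at -0.06 (SE 0.11), Rfxap at -0.16 (SE 0.09) and Rfxank at -0.09 (SE 0.17), and these 3 subunits of the X box factor varied far less between libraries than Ciita did. Nfya, a subunit of the Y box factor, stood at 24.9, 22.1 and 18.7 CPM in KO, against 29.2, 29.0 and 28.5 CPM in WT (-0.40, SE 0.11, adjusted p = 0.185). Irf1, which interferon-gamma induces and which binds interferon-response elements, stood at 25.1, 23.5 and 21.3 CPM in KO, against 28.9, 30.3 and 26.8 CPM in WT (-0.30, SE 0.09, adjusted p = 0.211). KO lay below WT without overlap for 3 of the 9 factors, Rfxap, Nfya and Irf1, as for 12.1% of all tested genes.

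Of 12 interferon receptor and JAK-STAT genes 0 were called, 9 were negative and the median was -0.14, with Ifngr1 at 0.04 (SE 0.14) and Ifngr2 at -0.15 (SE 0.10). Of 26 interferon-stimulated genes 0 were called, 17 were positive and 9 negative, and the median was 0.17. Ifit1 was at 0.36 (SE 0.25), Ifit2 at -0.05 (SE 0.26), Ifit3 at 0.19 (SE 0.46) and Isg15 at 0.02 (SE 0.45). The summed level of this list was 156, 191 and 196 CPM in KO, against 172, 188 and 152 CPM in WT, and the groups overlapped.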

How the data were processed

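Islets came from collagenase digestion and their total RNA went into Illumina TruSeq libraries, per the labels. HISAT2 2.1.0, HTSeq, DESeq2, CASAVA 1.8.2 and the mm9 build are listed in the submitters' processing notes. The annotation, strand setting and treatment of multi-mapping reads were not given in the sources used here. The deposited table holds raw read counts that the authors had not normalized, and 0 of its columns lacked a sample.

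Counts were fitted in R 4.3.3 with edgeR 4.0.16 (filterByExpr, TMM, quasi-likelihood F-test, Benjamini-Hochberg over 15915 genes, called below 0.05). The script was tested on simulated data. Levels are CPM scaled by TMM. DESeq2 1.42.0, limma 3.58.1, other scalings and filters, a replicate block, sex and leaving out each library were alternatives, and a B cell covariate was added after seeing the data. Exonic lengths and mm9 coordinates came from GENCODE vM1 by symbol, promoters from RefSeq on GRCm38.p6. Members with a mean of at least 5 CPM are given in every library; from other lists, called genes or otherwise up to 4 of the first tested. Irf1, Laptm5, Fcgr1, Ncr1 and the rarer members named with values were chosen after their values were seen. Members and lists were chosen with earlier results of these data known. Figures were drawn with matplotlib 3.10.9. The single values of 1 B cell marker are not reported here.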

Additional observations from a re-analysis of the deposited data

How the results depend on the processing

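Over all genes 27 were called, and 120 with no scaling factors, 646 with DESeq2, 11 with the B cell covariate, and 0 with limma-voom, the sex covariate or the replicate block. Leaving out 1 library gave 0 to 89. Of the members, 0 were called under every alternative listed except the one without WT replicate 3, which called 2 (H2-Ob and Ciita). DESeq2 gave no adjusted p for some members, H2-K2 among them, and these could not be called there. Class medians moved by less than the spread between libraries in each alternative, and without single libraries ranged from -0.18 to 0.18 for class I and from -0.69 to -0.11 for class II. Whether the replicate number pairs the libraries is unclear: same-numbered libraries deviated with correlations of 0.18, 0.039 and 0.053. KO replicates 1 and 2 each correlated best with the WT library of the same number. KO replicate 3 correlated best with WT replicate 2 (0.064). Members whose fold change changed sign were all uncalled, and the cause was not tested. With no scaling factors these were H2-K1 (-0.0090), H2-M3 (-0.058) and Psmb9 (-0.0016). With limma-voom they were H2-Oa (0.0034) and Psmb8 (0.032), and with the replicate block Psmb8 (0.027). With the sex covariate they were Cd74 (0.049), H2-Eb1 (0.17), H2-K1 (-0.24), H2-M3 (-0.23), H2-T10 (0.80), H2-T22 (-0.59), H2-T23 (-0.63), Psmb10 (0.14) and Psmb8 (0.0019). With the B cell covariate they were Cd74 (0.058), H2-Aa (0.25), H2-Ab1 (0.12), H2-Eb1 (0.14), H2-Oa (0.43), Psmb10 (0.012) and Psmb8 (0.13). Without single libraries, H2-D1 ranged from -0.042 to 0.20, H2-K1 from -0.098 to 0.24, H2-M3 from -0.17 to 0.21, H2-T10 from -1.84 to 0.070, H2-T22 from -0.0046 to 0.58 and H2-T23 from -0.18 to 0.41. H2-Q4 ranged from -0.20 to 0.066, H2-Q7 from -0.59 to 0.22, H2-Eb1 from -0.40 to 0.14, H2-Aa from -0.57 to 0.11 and H2-Ab1 from -0.66 to 0.084. Psmb8 ranged from -0.25 to 0.30, Psmb9 from -0.042 to 0.31, Psmb10 from -0.16 to 0.023 and Tap2 from -0.0021 to 0.17. The effect of depth on the rows with few counts was not tested.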

Other observations

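The row H2-T-ps, which is no member because its name ends in -ps, had 71, 13 and 11 counts in KO replicates 1 to 3, against 20, 23 and 47 counts in WT replicates 1 to 3. KO replicate 1 was its highest library and KO replicates 2 and 3 its lowest, as for H2-T10. H2-M9 had 11 counts and H2-M11 5 counts in KO replicate 1, and both had 0 in each of the other 5 libraries. The row H2-Ea-ps, named for the alpha chain of I-E and also no member, had 0, 0 and 0 counts in KO and 0, 1 and 0 in WT. The values of H2-Eb1 describe its RNA and do not show that an I-E molecule was made.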
